A study of Saccharomyces cerevisiae with 22 samples.

Results

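The proteasome of budding yeast, Saccharomyces cerevisiae, and its transcriptional activator Rpn4 are described here by 33 genes, taken by name from a table of 5381 genes: RPN4, 14 subunits of the core particle and 18 subunits of the regulatory particle. The samples were cells moved for 15 min to synthetic complete medium without glucose and cells kept in the same medium with glucose, in 2 strains, EY0690, given as w303, and the laboratory strain BY4741. The growth notes of some EY0690 samples name only BY4741, and the strain label was followed. No other allele or agent is named. All cells grew at 30 °C to an OD600 of 0.3 to 0.4, and all groups carry the same drug treatment, 1 min in 100 ug/ml of cycloheximide, which stalls elongating ribosomes. Ribosome footprints, the mRNA pieces that ribosomes shield from RNase I, and polyA RNA were each sequenced in 2 libraries per strain and condition, and unselected RNA in 1 library or 1 pooled column per strain and condition. The labels do not say whether replicates were separate cultures, so the p-values measure the spread between these libraries, which may be technical.

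The proteasome degrades proteins that carry ubiquitin chains. Its core particle is a barrel of alpha rings, which form the gate, and beta rings, which hold the proteolytic sites. Its regulatory particle caps the barrel with a base of ATPases that unfold substrates and a lid that removes ubiquitin. Rpn4 is a short-lived transcription factor that binds a promoter sequence shared by the subunit genes, the proteasome-associated control element. It is itself degraded by the proteasome, so that its level depends on proteasome capacity. In yeast starved of glucose for long periods, proteasomes are known to leave the nucleus and collect in cytoplasmic storage granules.

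The letters GGTGGCAAA of that element, searched on both strands without a mismatch from 250 bases before to 50 bases after the start codon, were present in 12 of 14 core particle promoters (85.7%) and 15 of 18 regulatory particle promoters (83.3%), against 72 of 6001 promoters (1.2%) in the genome. The 27 elements, 1 per gene, began 84 to 183 bases upstream of the start codon, with a median of 120.0, and 19 read in the direction of the gene and 8 against it. The element was not found in the windows of PRE5, PUP1, RPN8, RPN10, RPN13 and RPN4 itself. Its first 6 letters, GGTGGC, were present in RPN10 and RPN13 in addition, which makes 29 of 32 subunits, and in 416 promoters (6.93%). Elements of the subunits on which the results below turn, and the 2 shorter matches, follow from the RefSeq R64 genome, each 5′ to 3′ on the strand that carries the letters, with the matched letters in capitals. Those of RPT4, SCL1 and RPN10 lie on the strand opposite the gene.

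PRE2, chrXVI:732184-732212, strand plus: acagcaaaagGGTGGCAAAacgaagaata
PRE7, chrII:141150-141178, strand plus: aaactcaaagGGTGGCAAAaacaagcggt
PRE8, chrXIII:86841-86869, strand minus: agcttattaaGGTGGCAAAattgtccccg
RPN11, chrVI:153259-153287, strand plus: ggacctccaaGGTGGCAAAttcacaagaa
RPT4, chrXV:813802-813830, strand plus: ctttcccttcGGTGGCAAAttccactatt
SCL1, chrVII:475337-475365, strand plus: ctatccttacGGTGGCAAAttggtgtgtg
RPN10, chrVIII:498971-498996, strand minus: tgtaaattccGGTGGCgaaaacccgc
RPN13, chrXII:965659-965684, strand minus: ttattcgcgaGGTGGCgaaagctttg

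**Figure D1:**
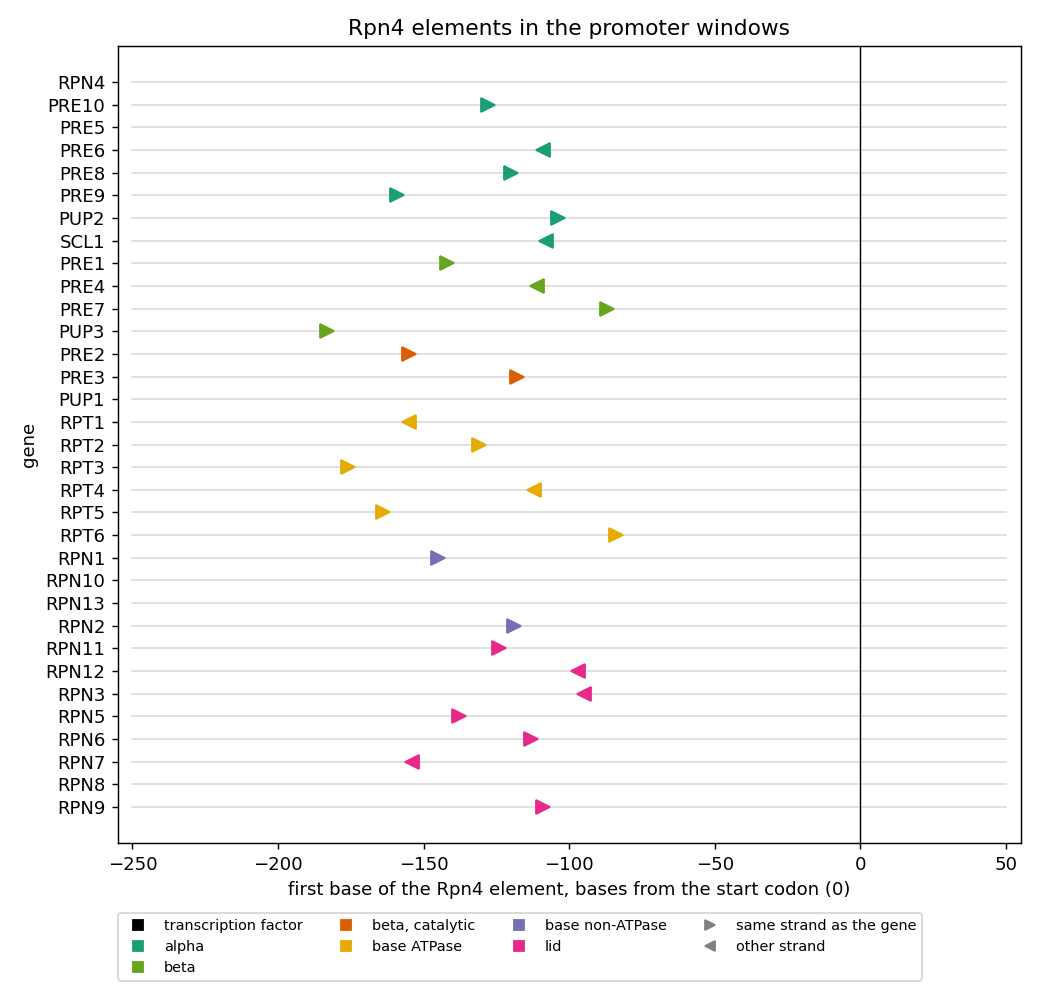
Position of the Rpn4 element in the promoter window of each gene, in bases from the start codon at 0 (x axis), with 1 gene per row, coloured by subcomplex. Triangles point along the strand that carries the element, and the 27 elements lie between 84 and 183 bases upstream; rows without a triangle are the 6 genes without a match.

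Counts downstream of the initiation region of each gene came to between 698310 and 8110916 per footprint library and between 1146371 and 7003745 per polyA library. The members took 0.52 to 0.855% of the footprint counts and 0.918 to 1.13% of the polyA counts of a library. All 33 members passed the filter on low counts. The smallest count of a member was 44 footprints, for RPN13 in the first glucose library of EY0690. No member shared a stretch of 28 bases with another place in the genome, and none overlapped another annotated gene. The BY4741 footprint libraries numbered 2 stood apart: across genes their log2 CPM (CPM, counts scaled to library size with TMM factors) correlated with that of the polyA library of the same strain, condition and number at 0.942 (starved) and 0.946 (glucose), against 0.82 to 0.873 in the other 6 footprint libraries. Footprint results are therefore also given without them. Every change below is relative to the other genes of the same assay, because counts were scaled by library. A rise or fall shared by all genes would not show.

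RPN4 mRNA rose about 3-fold within 15 min of glucose removal. RPN4 (chrIV:415113-416708, minus strand, 1 coding exon of 1596 bases) had 519.7 and 404 CPM in starved EY0690 and 321 and 234 in starved BY4741, against 95.6 and 127 CPM in glucose-grown EY0690 and 109.5 and 119 in glucose-grown BY4741. Every starved library lay above every glucose library, and the starved EY0690 libraries were the highest. The log2 change was 1.66 ± 0.20 (SE), 3.15-fold, with an adjusted p of 5.464e-05 by edgeR's quasi-likelihood test over 8 libraries. Of the 5304 genes tested in polyA RNA, 20.4% were called higher and 19.2% lower at an adjusted p under 0.05. Within EY0690 the log2 change was 2.06 ± 0.26 (adjusted p = 7.777e-05), where 15% of genes were called higher, and within BY4741 it was 1.28 ± 0.25 (adjusted p = 0.003238), where 11.2% were. The change was larger in EY0690 by 0.78 ± 0.36 on the log2 scale, a difference that did not pass (adjusted p = 0.882).

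Unselected RNA, with 1 value per condition and no replicate, moved in the same direction. In BY4741 total RNA, RPN4 had 344 counts in starved cells and 218 in glucose, 244 against 102 CPM, or 2.39-fold. In the authors' pooled total and RiboZero column of EY0690 it had 817 counts in starved cells and 558 in glucose, 2.95-fold after scaling.

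Footprints on RPN4 were 156 and 135 CPM in starved EY0690 and 97.0 and 83.6 in starved BY4741, against 59.9 and 77.9 CPM in glucose-grown EY0690 and 49.9 and 77.5 in glucose-grown BY4741. The starved libraries again lay above all glucose libraries, with the second starved BY4741 library closest to them. The log2 change of 0.77 ± 0.23 did not pass in the footprint test (adjusted p = 0.115), in which 2.93% of 5018 genes were called higher and 0.259% lower. It stayed short of the threshold in 10 of 15 alternatives and passed in 5, at a log2 change of 0.60 to 1.04. Among those that did not pass were library size alone (adjusted p = 0.476), RLE scaling (0.116) and DESeq2 (0.0592). With the replicate numbers as a block the adjusted p was 0.0395, and without the BY4741 footprint libraries numbered 2 it was 0.0108.

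Relative to its polyA RNA, RPN4 carried fewer downstream footprints in starved cells than most genes. Footprints over polyA RNA stood at -1.03 ± 0.22 on the log2 scale in starved cells (adjusted p = 0.00152) and at -0.20 ± 0.22 in glucose (adjusted p = 0.477), where 0 is the centre that TMM scaling sets for all genes. In starved cells 23.5% of genes were called higher and 22.7% lower in footprints than in polyA RNA; in glucose 21.6% were called higher and 23.4% lower. The change of this ratio, starved less glucose, was -0.83 ± 0.31 (adjusted p = 0.193). In all 22 alternatives the starved ratio stayed past the threshold, at -1.67 to -0.84. Against unselected RNA the starved ratio was low too: log2 footprints over total RNA was -1.36 in EY0690 and -1.43 in BY4741, beside all-gene medians of -0.41 and -0.28. On this base it was below the median gene in glucose too, at -0.88 in EY0690 and -0.68 in BY4741, beside -0.31 and -0.28.

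More of the footprints left on RPN4 in starved cells lay at the start of its coding sequence. The share of its footprints in the initiation region was 23.3 and 29.4% in starved EY0690 and 26.3 and 9.88% in starved BY4741, against 3.33 and 1.64% in EY0690 in glucose and 9.42 and 4.17% in BY4741 in glucose. The starved mean was 22.2 ± 8.58% and the glucose mean 4.64 ± 3.36% (SD, n = 4 libraries each), and the groups did not overlap, although the second starved BY4741 library at 9.88% and the first glucose BY4741 library at 9.42% were close. These shares rest on 65 and 59 initiation-region counts in starved EY0690 and 56 and 60 in starved BY4741, against 2 and 1 in EY0690 in glucose and 18 and 33 in BY4741 in glucose, and the 95% Wilson interval for the glucose library with 1 such count ran from 0.29 to 8.72%, which covers counting error only. RPN4 was the only member whose starved libraries all exceeded its glucose libraries in this share, against 5.58% of 4983 genes. Where the authors drew the edge of the initiation region is not stated in the labels or headers.

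The 32 subunits showed a smaller shift. Their median share per library was 18.1 and 15.3% in starved EY0690 and 15.0 and 9.81% in starved BY4741, against 6.59 and 11.2% in EY0690 in glucose and 15.7 and 6.55% in BY4741 in glucose, beside all-gene medians of 12.1 and 9.52% in starved EY0690 and 10.3 and 6.74% in starved BY4741, against 5 and 6.39% in EY0690 in glucose and 12.6 and 5.01% in BY4741 in glucose. Within a pair of libraries of the same strain and number, the share was higher in starved cells for 31 and 29 of 32 subunits in EY0690 and for 17 and 30 in BY4741, against 74.1% and 59.2% of all genes in EY0690 and 39.9% and 68.1% in BY4741.

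**Figure D2:**
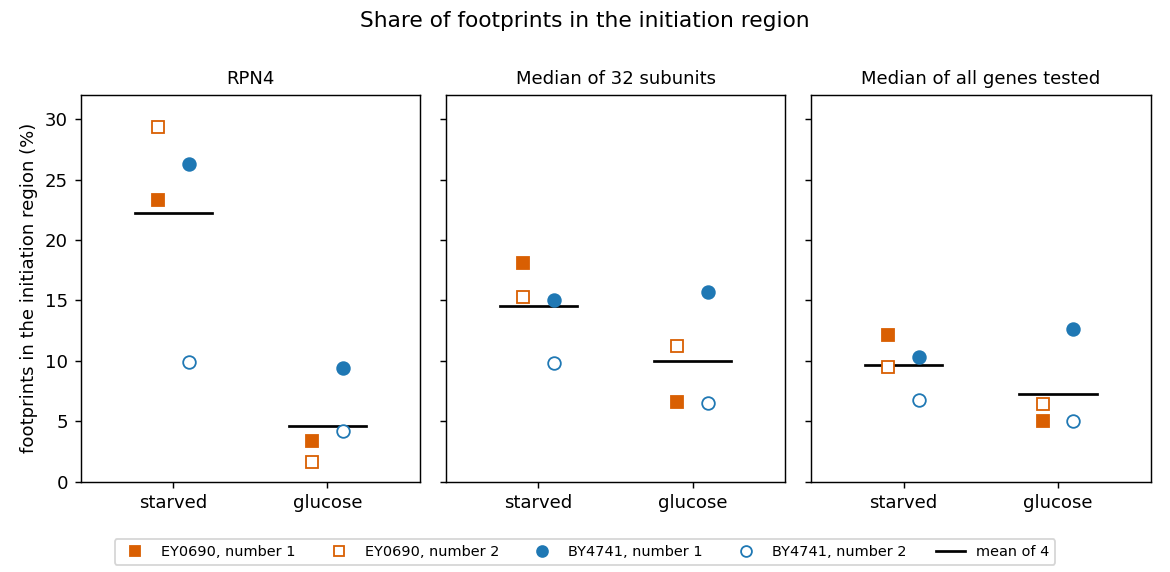
Share of a gene's footprints that fell in the initiation region, in percent (y axis), for RPN4, the median of the 32 subunits and the median of all genes tested, with starved libraries left of glucose libraries; each point is 1 library and the bar is the mean of 4. The RPN4 libraries lie between 9.88 and 29.4% in starved cells and between 1.64 and 9.42% in glucose.

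Most subunit mRNAs had slightly higher values in starved cells, and few passed the test one by one. In polyA RNA 28 of 32 subunits had a log2 change above 0, beside 47.8% of all genes, and their median was 0.22, beside -0.03 for all genes. The 3 subunits that passed were PRE7, PRE8 and RPN11, none was called lower, against 20.4% of all genes called higher and 19.2% lower, and 8 subunits had an unadjusted p under 0.05, all upward. In this fit, which does not pair the libraries, a call of 3 of 32 subunits is a smaller share than that of all genes. With scaling by library size alone the all-gene median moved to -0.13, the subunits' median to 0.12, 23 of 32 were above 0, and RPN4 was the only member called. With the replicate numbers as a block 9 members passed: RPN4, the 3 subunits and PUP2, RPN2, RPN6, RPT3 and SCL1. The smaller share did not hold in the block fit. No alternative called more than 1243 genes higher over all genes, with 5304 tested in the main fit.

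PRE8, an alpha subunit (chrXIII:85987-86739, minus strand), had 327 and 222 CPM in starved EY0690 and 188 and 127 in starved BY4741, against 179 and 189.6 CPM in glucose-grown EY0690 and 112 and 110.2 in glucose-grown BY4741. Each starved library was above the glucose library of its strain with the same number, while the strains themselves differed so that the groups overlapped. Its log2 change was 0.54 ± 0.17 (adjusted p = 0.0258). RPN11, the lid's deubiquitinating enzyme (chrVI:153393-154313, plus strand), had 379 and 312 CPM in starved EY0690 and 332 and 206 in starved BY4741, against 269 and 233 CPM in glucose-grown EY0690 and 197 and 162 in glucose-grown BY4741. The groups overlapped, and within every pair of the same strain and number the starved library was higher, with a log2 change of 0.52 ± 0.18 (adjusted p = 0.0338). PRE7, a beta subunit without a proteolytic site (chrII:141247-141972, plus strand), had 230.1 and 234 CPM in starved EY0690 and 278 and 224 in starved BY4741, against 166 and 147 CPM in glucose-grown EY0690 and 204 and 206 in glucose-grown BY4741. All starved libraries lay above all glucose libraries, and the log2 change was 0.43 ± 0.15 (adjusted p = 0.0364). These 3 calls were near the threshold. Without the first starved EY0690 library, the first starved BY4741 library or the second glucose BY4741 library RPN4 was the only member called. Without the first glucose BY4741 library RPN4 and SCL1 were called and none of the 3. PRE8 and RPN11 stayed called without the second starved EY0690 library, RPN11 alone of the 3 without the first glucose EY0690 library, and PRE8 alone without the second. Without the second starved BY4741 library all 3 stayed and RPN6, RPT3 and SCL1 were called in addition.

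The other subunits are given by subcomplex, as log2 changes in polyA RNA that did not pass. Among the alpha subunits SCL1 was at 0.42, PUP2 at 0.35, PRE10 at 0.17, PRE5 at 0.04, PRE9 at 0.00 and PRE6 at -0.13. The subunits with a proteolytic site, PRE2 (chymotrypsin-like), PRE3 (caspase-like) and PUP1 (trypsin-like), were at 0.32, 0.21 and 0.09. The remaining beta subunits PRE1, PRE4 and PUP3 were at 0.25, 0.23 and -0.27. All 6 ATPases of the base were above 0, with RPT3 at 0.38, RPT1 at 0.29, RPT6 at 0.27, RPT2 at 0.18, RPT5 at 0.17 and RPT4 at 0.14. In the rest of the base the scaffolds RPN2 and RPN1 were at 0.35 and 0.29, and the ubiquitin receptors RPN10 and RPN13 at 0.28 and 0.16. In the lid RPN6 was at 0.43, RPN3 at 0.25, RPN8 at 0.14, RPN9 at 0.08, RPN7 at 0.06, RPN5 at 0.03 and RPN12 at -0.03. Without any overlap between starved and glucose libraries were PRE2, PRE3, PRE7, PUP2, RPT3 and RPN4, 6 of 33 members, against 12.1% of all genes.

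In polyA RNA the median log2 change was 0.22 in the core and in the regulatory particle, with 11 of 14 core subunits and 17 of 18 regulatory subunits above 0. The order of the 2 particles differed by strain: in EY0690 the core median was 0.29 and the regulatory median 0.21, and in BY4741 they were 0.12 and 0.29. The difference between the particles was not tested. Subunits with the Rpn4 element had a median of 0.25 (n = 27, 23 above 0) and those without it 0.14 (n = 5, all 5 above 0), which is a description of few genes. Unselected RNA gave medians over the 32 subunits of 0.22 in the pooled EY0690 column (29 above 0) and 0.39 in BY4741 (30 above 0), beside all-gene medians of 0.04 and -0.01. With library size alone these medians were 0.11 and 0.25, beside -0.07 and -0.15 for all genes. The largest subunit changes in unselected RNA were PRE2 in EY0690 at 0.71 and PRE3 in BY4741 at 0.62, each from 1 value per condition.

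**Figure D3:**
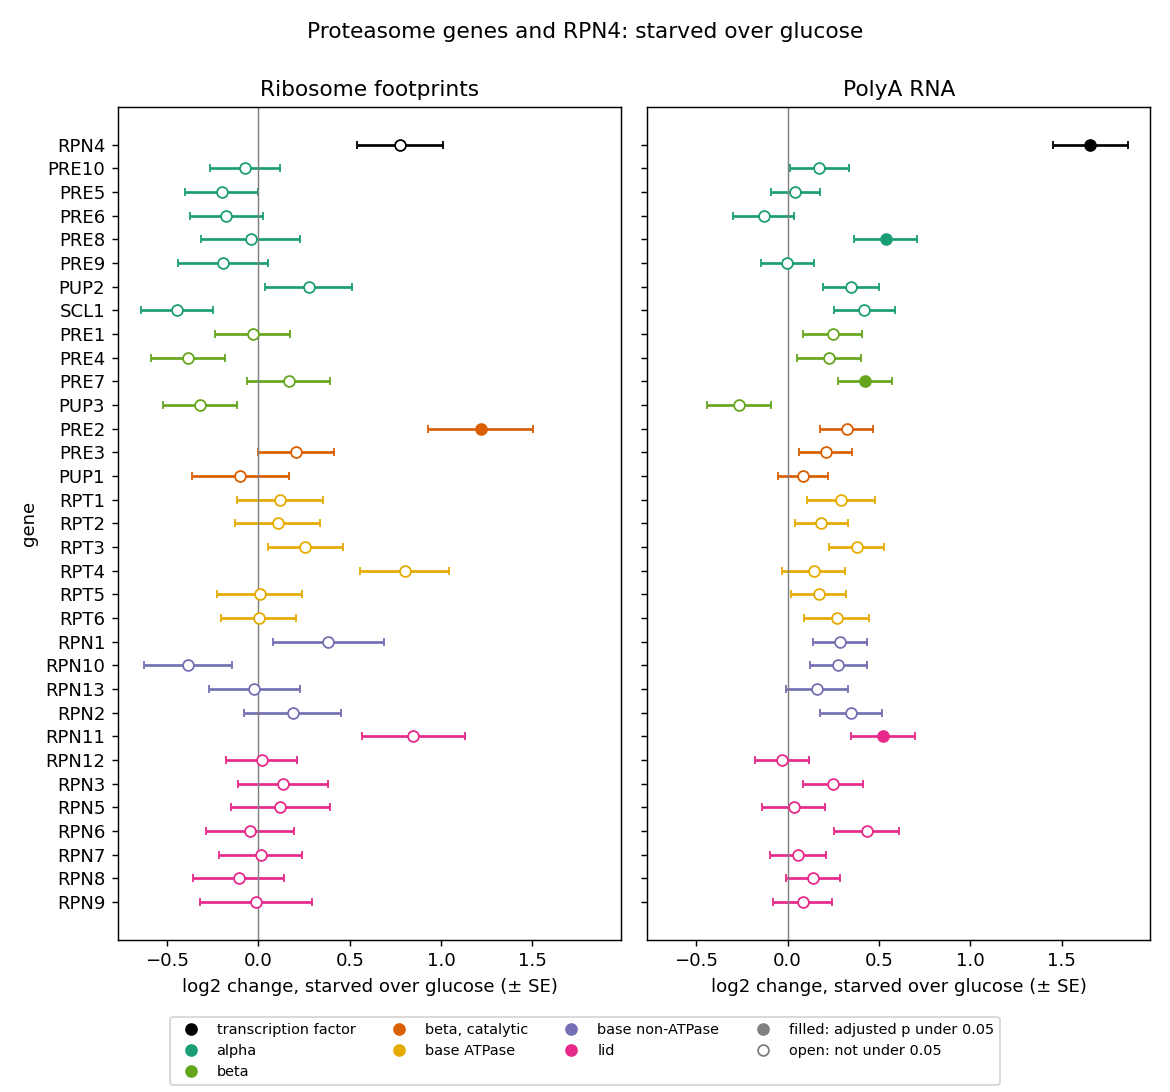
Log2 change in starved over glucose cells with its SE (x axis) for each of the 33 genes (rows), in ribosome footprints on the left and polyA RNA on the right, coloured by subcomplex. Filled points passed at an adjusted p under 0.05: PRE2 at 1.22 in footprints, and RPN4 at 1.66, PRE8 at 0.54, RPN11 at 0.52 and PRE7 at 0.43 in polyA RNA.

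In footprints the subunits had no common direction that held across strains and scalings, and single subunits stood apart. The median log2 footprint change of the 32 subunits was 0.00, beside -0.03 for all genes, with 17 of 32 above 0. It was -0.08 in the core particle (4 of 14 above 0) and 0.06 in the regulatory particle (13 of 18 above 0). With library size alone, which moved the all-gene median to -0.17, 9 of 32 were above 0 with a median of -0.13, the core median was -0.25 and the regulatory median turned to -0.09. Within EY0690 22 of 32 were above 0 with a median of 0.13, and within BY4741 11 of 32 with a median of -0.08, beside all-gene medians of -0.06 and 0.03. The 2 EY0690 pairs of the same number differed, with 23 and 13 of 32 above 0 and medians of 0.25 and -0.03. In the BY4741 pairs 14 and 10 were above 0, with medians of -0.06 and -0.05. PRE2 was the only member that passed.

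PRE2 (chrXVI:732349-733212, plus strand), which carries the chymotrypsin-like site, had 400.2 and 376 CPM in starved EY0690 and 632 and 275 in starved BY4741, against 142 and 194 CPM in glucose-grown EY0690 and 204 and 183 in glucose-grown BY4741 in footprints. All starved libraries were above all glucose libraries, the first starved BY4741 library being the highest and the second starved BY4741 library the lowest of the 4. Its log2 change was 1.22 ± 0.29, 2.33-fold relative to the other genes (adjusted p = 0.0392). In polyA RNA the same gene had 365 and 384 CPM in starved EY0690 and 341 and 372 in starved BY4741, against 257 and 268 CPM in glucose-grown EY0690 and 318 and 328 in glucose-grown BY4741, also without overlap, and a log2 change of 0.32 ± 0.15 (adjusted p = 0.0945). The footprint change was 1.21 in EY0690 and 1.23 in BY4741 taken alone, neither past the threshold with 2 libraries per group. The call was lost without any 1 of the EY0690 libraries (adjusted p from 0.111 to 0.172), without the first starved, first glucose or second glucose BY4741 library (0.0998, 0.0984 and 0.0896), and with RLE scaling (0.0503), while its log2 change stayed between 0.94 and 1.42.

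RPT4 and RPN11 followed, without passing. RPT4, a base ATPase, had 389 and 373 CPM in starved EY0690 and 433 and 284 in starved BY4741, against 184 and 186 CPM in glucose-grown EY0690 and 253 and 231 in glucose-grown BY4741 in footprints. Its starved libraries lay above all glucose libraries, with a log2 change of 0.80 ± 0.24 (adjusted p = 0.115), while its polyA RNA moved by 0.14 ± 0.17. Footprints on RPN11 were 227 and 198 CPM in starved EY0690 and 299 and 148 in starved BY4741, against 78.4 and 109 CPM in glucose-grown EY0690 and 176 and 132 in glucose-grown BY4741. These overlapped, since the second starved BY4741 library was below the first glucose one, and the log2 change was 0.85 ± 0.28 (adjusted p = 0.151). RPT4 stayed short of the threshold in 11 of 15 alternatives and RPN11 in 12. With the replicate numbers as a block both passed (adjusted p = 0.035 for RPT4 and 0.0401 for RPN11), and 4 members were called in place of 1. The same 4, PRE2, RPN4, RPT4 and RPN11, were called without the BY4741 footprint libraries numbered 2. Over all genes the alternatives called between 79 and 380 higher in footprints, against 147 in the main fit.

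At the other end, SCL1, PRE4 and PUP3 had footprints in starved cells below those in every glucose library. SCL1, an alpha subunit, had 110.1 and 123 CPM in starved EY0690 and 111 and 134 in starved BY4741, against 139 and 165 CPM in glucose-grown EY0690 and 176 and 172 in glucose-grown BY4741 in footprints. All 4 starved values were below all 4 glucose values. The log2 change was -0.45 ± 0.20 (adjusted p = 0.306), and -0.57 to -0.17 over 15 alternatives. Its polyA RNA was 273 and 240.0 CPM in starved EY0690 and 297 and 230.0 in starved BY4741, against 153 and 181 CPM in glucose-grown EY0690 and 252 and 197 in glucose-grown BY4741, a log2 change of 0.42 ± 0.17 in the other direction (adjusted p = 0.0608). PRE4 was at -0.38 ± 0.20 and PUP3 at -0.32 ± 0.20 in footprints, neither past the threshold. In all, 3 members (PRE2, RPN4, RPT4) lay above without overlap, against 3.85% of genes, and these 3 lay below, against 1.71% of genes.

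The remaining footprint changes lay between -0.39 for RPN10 and 0.38 for RPN1, and none passed. In the core particle they were PRE5 -0.20, PRE9 -0.19, PRE6 -0.17, PUP1 -0.10, PRE10 -0.07, PRE8 -0.04, PRE1 -0.03, PRE7 0.17, PRE3 0.21 and PUP2 0.27. In the base they were RPT3 0.26, RPT1 0.12, RPT2 0.11, RPT5 0.01, RPT6 0.00, RPN2 0.19 and RPN13 -0.02. In the lid they were RPN3 0.13, RPN5 0.12, RPN12 0.02, RPN7 0.01, RPN9 -0.01, RPN6 -0.05 and RPN8 -0.11. These estimates are imprecise: for RPN9 the approximate 95% interval ran from -0.61 to 0.59.

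**Figure D4:**
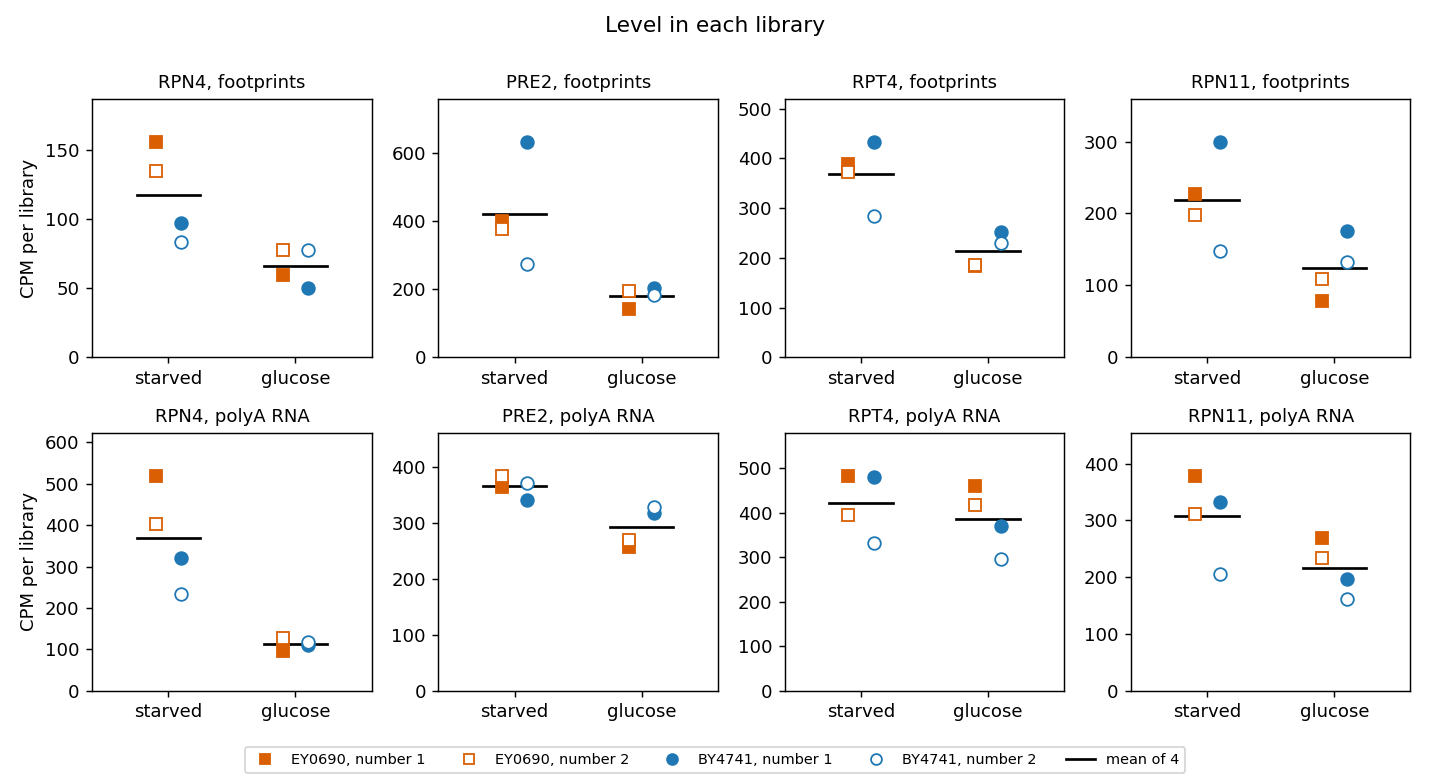
CPM in each library (y axis, from 0) for RPN4, PRE2, RPT4 and RPN11, with footprints in the upper row and polyA RNA in the lower, starved libraries left of glucose libraries; squares are EY0690, circles BY4741, filled symbols number 1 and open symbols number 2, and the bar is the mean of 4. RPN4 separates furthest in polyA RNA, from 234 to 519.7 CPM in starved cells against 95.6 to 127 CPM in glucose, and PRE2 in footprints, from 275 to 632 CPM against 142 to 204 CPM.

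Ribosome occupancy, footprints relative to polyA RNA, changed for no member in edgeR's test of the assay by condition term over 16 libraries. Among all genes 0.279% were called higher and 1.06% lower. An unadjusted p under 0.05 was reached by 6 members: SCL1 at -0.81 ± 0.23 (adjusted p = 0.0878), RPN4 at -0.83 ± 0.31, RPN10 at -0.61 ± 0.29 and PRE4 at -0.56 ± 0.25 downward, and PRE2 at 0.96 ± 0.32 (adjusted p = 0.142) and RPT4 at 0.72 ± 0.29 upward. DESeq2 called SCL1 lower, and without the BY4741 footprint libraries numbered 2 PRE2 was called higher. Of the 32 subunits 10 were above 0, beside 53.9% of all genes, and their median was -0.10, beside 0.05; it was -0.16 in the core and -0.06 in the regulatory particle.

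Within each condition the subunits differed in how many footprints they carried per polyA read. PUP1, the subunit with the trypsin-like site, and RPN1 were higher in footprints than in polyA RNA in both conditions with TMM scaling, although PUP1 turned to -0.029 in starved cells with library size alone. PRE9, PUP3, RPN5, RPN7 and RPN8 were lower in both. In starved cells 3 subunits were called higher (PRE2, PUP1, RPN1) and 9 lower (PRE9, PRE10, PUP3, SCL1, RPN5, RPN7, RPN8, RPN13, RPT6), and RPN4 was lower as well. In glucose 3 were called higher (PUP1, RPN1, RPN10) and 5 lower (PRE9, PUP3, RPN5, RPN7, RPN8). These shares of the members stand beside 23.5% higher and 22.7% lower in starved cells and 21.6% and 23.4% in glucose over all genes. Library size alone moved the all-gene median to -0.65 in starved cells and -0.60 in glucose, and the members called to 0 higher and 28 lower in starved cells and to 0 higher and 20 lower in glucose, so the zero of this ratio is set by the scaling and only the order of the genes is free of it. The share of called genes that were higher moved with it, to 14.8% in starved cells and 17.2% in glucose, against 50.9% and 48% with TMM.

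Among the subunits RPN8, the lid's partner of RPN11, stood lowest in starved cells and RPN5 lowest in glucose. The ratio of RPN8 was -0.98 ± 0.20 in starved cells (adjusted p = 0.00109) and -0.79 ± 0.20 in glucose (adjusted p = 0.00528). RPN8 had 102 and 94.0 CPM in starved EY0690 and 150.2 and 252 in starved BY4741, against 86.7 and 131 CPM in glucose-grown EY0690 and 174 and 250 in glucose-grown BY4741 in footprints. In polyA RNA it had 417 and 367 CPM in starved EY0690 and 461 and 458 in starved BY4741, against 314 and 347 CPM in glucose-grown EY0690 and 486 and 411 in glucose-grown BY4741, above its footprint value in every strain and condition. RPN5, another lid subunit, was at -0.70 ± 0.22 in starved cells (adjusted p = 0.0181) and -0.85 ± 0.23 in glucose (adjusted p = 0.00749). Its footprints were 167 and 207 CPM in starved EY0690 and 275 and 384 in starved BY4741, against 105 and 189.6 CPM in glucose-grown EY0690 and 302 and 401 in glucose-grown BY4741. Its polyA RNA was 664 and 483 CPM in starved EY0690 and 707 and 628 in starved BY4741, against 685 and 509.6 CPM in glucose-grown EY0690 and 679 and 546 in glucose-grown BY4741. In EY0690 the polyA values were over 2 times the footprint values in each condition. CPM here and in the next paragraphs were scaled within each assay, so a polyA value above the footprint value does not place the ratio. With library size alone the all-gene median of footprints over polyA RNA was -0.65 in starved cells and -0.60 in glucose.

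PUP3, a beta subunit without a proteolytic site, was at -0.74 ± 0.19 in starved cells and -0.75 ± 0.19 in glucose (adjusted p = 0.00541 and 0.00568). Its footprints were 116 and 95.0 CPM in starved EY0690 and 95.8 and 114 in starved BY4741, against 125 and 159.8 CPM in glucose-grown EY0690 and 117 and 128 in glucose-grown BY4741. Its polyA RNA was 386 and 317 CPM in starved EY0690 and 194 and 221 in starved BY4741, against 553 and 328 CPM in glucose-grown EY0690 and 232 and 246 in glucose-grown BY4741, highest in the first EY0690 library in glucose. PRE9, the only alpha subunit that yeast can live without, was at -0.69 ± 0.19 in starved cells and -0.56 ± 0.19 in glucose (adjusted p = 0.00787 and 0.0257). PRE9 had 104 and 145 CPM in starved EY0690 and 143 and 223 in starved BY4741, against 116 and 175 CPM in glucose-grown EY0690 and 186 and 226 in glucose-grown BY4741 in footprints. PolyA RNA of PRE9 was 375 and 325 CPM in starved EY0690 and 414 and 384 in starved BY4741, against 355 and 337 CPM in glucose-grown EY0690 and 447 and 363 in glucose-grown BY4741. In every library pair its polyA value was above its footprint value. RPN7, a lid subunit, was close to the threshold at -0.44 ± 0.18 in starved cells and -0.46 ± 0.18 in glucose (adjusted p = 0.0497 and 0.045). Its footprints were 162 and 178 CPM in starved EY0690 and 214 and 246 in starved BY4741, against 128 and 204 CPM in glucose-grown EY0690 and 219.8 and 244 in glucose-grown BY4741. Its polyA RNA was 451 and 385 CPM in starved EY0690 and 385 and 427 in starved BY4741, against 440.0 and 356 CPM in glucose-grown EY0690 and 430.3 and 358 in glucose-grown BY4741, again above the footprint value in each group.

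On the other side, PUP1 was at 0.66 ± 0.21 in starved cells and 0.78 ± 0.21 in glucose (adjusted p = 0.0189 and 0.00815). It had 185 and 162 CPM in starved EY0690 and 185 and 102 in starved BY4741, against 140.3 and 165 CPM in glucose-grown EY0690 and 224 and 146 in glucose-grown BY4741 in footprints. In polyA RNA it had 152 and 149 CPM in starved EY0690 and 168 and 147 in starved BY4741, against 135 and 144 CPM in glucose-grown EY0690 and 166 and 136 in glucose-grown BY4741, with all 8 polyA libraries between 135 and 168 CPM. RPN1, the largest scaffold of the base, was at 0.84 ± 0.23 in starved cells and 0.69 ± 0.23 in glucose (adjusted p = 0.00846 and 0.0257). Footprints on RPN1 were 555 and 706 CPM in starved EY0690 and 837 and 411 in starved BY4741, against 378 and 491 CPM in glucose-grown EY0690 and 641 and 422 in glucose-grown BY4741. PolyA RNA of RPN1 was 599 and 691 CPM in starved EY0690 and 479 and 418 in starved BY4741, against 508 and 602 CPM in glucose-grown EY0690 and 345 and 353 in glucose-grown BY4741. Each starved polyA library was above its glucose counterpart of the same strain and number. RPN10, a ubiquitin receptor, was higher in glucose alone, at 0.60 ± 0.20 (adjusted p = 0.0251), against -0.01 ± 0.20 in starved cells (adjusted p = 0.963), and this difference between conditions did not pass. It had 158 and 145 CPM in starved EY0690 and 126 and 88.6 in starved BY4741, against 164 and 207 CPM in glucose-grown EY0690 and 190.1 and 109.7 in glucose-grown BY4741 in footprints. In polyA RNA it had 230.1 and 242 CPM in starved EY0690 and 196 and 134 in starved BY4741, against 186 and 185 CPM in glucose-grown EY0690 and 155 and 130.1 in glucose-grown BY4741. The second BY4741 library was the lowest in each condition in both assays.

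The other calls were in starved cells alone. PRE2 was higher at 0.82 ± 0.22 (adjusted p = 0.00764), against -0.14 ± 0.22 in glucose, and SCL1 was lower at -0.51 ± 0.16 (adjusted p = 0.0182), against 0.31 ± 0.16 in glucose. RPT6, a base ATPase, was lower at -0.66 ± 0.18 (adjusted p = 0.0086). It had 175 and 165 CPM in starved EY0690 and 234 and 239 in starved BY4741, against 148 and 179 CPM in glucose-grown EY0690 and 249 and 243 in glucose-grown BY4741 in footprints. PolyA RNA of RPT6 was 451 and 418 CPM in starved EY0690 and 659 and 422 in starved BY4741, against 438 and 359 CPM in glucose-grown EY0690 and 448 and 366 in glucose-grown BY4741. On the separate scales of the 2 assays its polyA values were above its footprint values throughout, as were those of the next 2 subunits. RPN13, a ubiquitin receptor and the shortest of the 33 genes, was lower at -0.59 ± 0.21 (adjusted p = 0.032). It had 79.5 and 65.5 CPM in starved EY0690 and 70.5 and 108 in starved BY4741, against 45.4 and 68.8 CPM in glucose-grown EY0690 and 105 and 122 in glucose-grown BY4741 in footprints. PolyA RNA of RPN13 was 172 and 147 CPM in starved EY0690 and 260.3 and 171 in starved BY4741, against 171 and 143 CPM in glucose-grown EY0690 and 187 and 167 in glucose-grown BY4741. The conditions overlapped in both assays. PRE10, an alpha subunit, was lower at -0.43 ± 0.16 (adjusted p = 0.0356). It had 165 and 151 CPM in starved EY0690 and 134 and 144 in starved BY4741, against 167 and 156 CPM in glucose-grown EY0690 and 148 and 152 in glucose-grown BY4741 in footprints. Its polyA RNA was 324 and 309 CPM in starved EY0690 and 359 and 239.6 in starved BY4741, against 294 and 281 CPM in glucose-grown EY0690 and 279 and 239 in glucose-grown BY4741. RPT6, RPN13 and PRE10 were also below 0 in glucose, at -0.45, -0.46 and -0.25, without passing.

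The polyA values of several low-occupancy subunits were high relative to unselected RNA, and this was examined after those values were seen. A high polyA value raises this ratio and lowers footprints over polyA RNA, so the 2 ratios are not independent. In BY4741 in glucose, log2 polyA over total RNA was 1.88 for RPN8, 1.72 for RPN13, 1.59 for RPN5, 1.45 for PRE9 and 1.41 for PUP3, beside 0.80 for the median subunit and 0.38 for the median gene. The other subunits called low in occupancy were nearer the median subunit, with RPN7 at 1.17, RPT6 at 1.16, PRE10 at 1.14 and SCL1 at 0.81. PRE3 and RPN9, called low in neither condition, were at 1.51 and 1.47. Log2 polyA over total RNA was -0.94 for RPN1 and -0.46 for RPN2, the longest members at 2982 and 2838 coding bases. Against BY4741 total RNA, footprints on RPN8, RPN5 and PUP3 in glucose were at 0.80, 0.79 and 0.44, above the all-gene median of -0.28 and not below it. Against the pooled EY0690 column in glucose they were at -0.48, -0.59 and -0.11, beside an all-gene median of -0.31. In starved EY0690 they were at -0.996, -0.39 and -0.38, beside -0.41, and RPN8 was the lowest subunit on this base too. In starved BY4741 they were at 0.20, 0.41 and 0.17, beside -0.28. Footprints over RNA differed less among the 32 subunits with unselected RNA as the base: in starved cells the SD of the log2 ratio was 0.40 in EY0690 and 0.38 in BY4741, against 0.51 and 0.44 with polyA RNA, and in glucose 0.33 and 0.29 against 0.55 and 0.43. All genes narrowed too in EY0690, to 0.86 against 1.05 in starved cells and 0.70 against 0.96 in glucose, and did not in BY4741, at 0.83 against 0.83 and 0.88 against 0.85. How far polyA selection sets the low ratios was not tested.

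**Figure D5:**
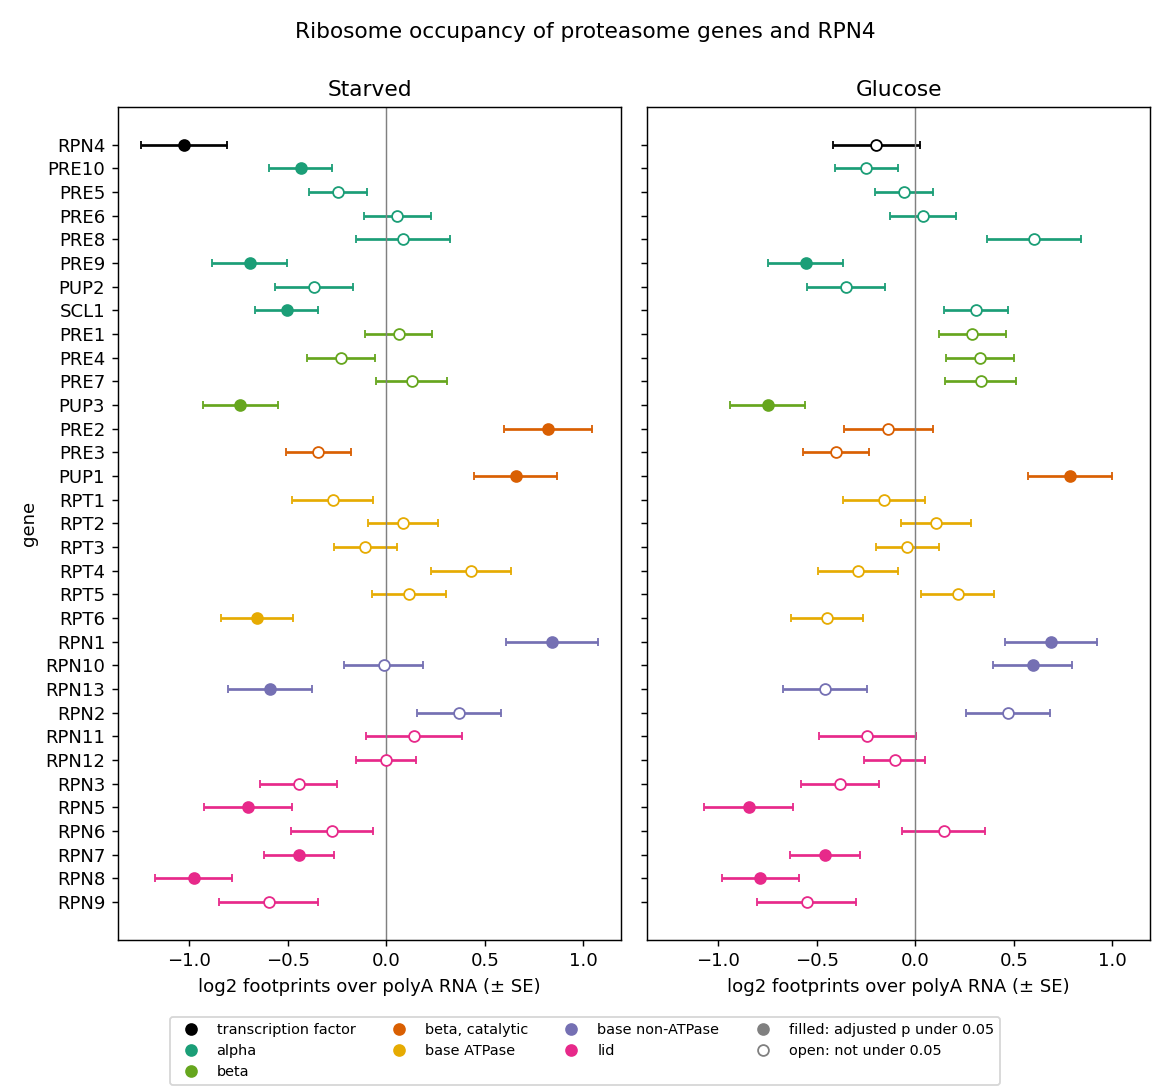
Log2 footprints over polyA RNA with its SE (x axis) for each of the 33 genes (rows), in starved cells on the left and in glucose on the right, coloured by subcomplex; filled points passed at an adjusted p under 0.05. RPN4 lies at -1.03 in starved cells and -0.20 in glucose, PRE2 at 0.82 and -0.14, and RPN8 at -0.98 and -0.79.

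Levels per length spread less among the 32 subunits than among all genes tested in every library. Other sets of well-expressed genes were not compared. The SD of log2 CPM per kilobase of coding sequence across the 32 subunits ran from 0.40 to 0.53 in starved and from 0.27 to 0.48 in glucose footprint libraries, against 1.91 to 2.21 and 1.94 to 2.42 across all genes tested. In polyA RNA it ran from 0.35 to 0.49 in starved and 0.36 to 0.58 in glucose libraries, against 1.88 to 1.97 and 1.88 to 2.17 across all genes, and in unselected RNA from 0.24 to 0.31. RPN4 stood below every subunit in footprints per length, at 73.8 ± 20.9 CPM per kilobase in starved cells and 41.5 ± 8.64 in glucose (SD, n = 4), where the lowest subunits had 120.0 ± 43.5 (RPN9, starved) and 126 ± 59.6 (RPN9, glucose). In starved cells PRE2 was the highest subunit in footprints per length at 487 ± 175, followed by RPT4 at 281 ± 47.5. In glucose PRE6 led at 238 ± 20.9, PRE2 had 209 ± 31.4 and RPT4 162 ± 26.0, and the highest subunits differed by less than their SD. In polyA RNA per length RPN4 had 232 ± 76.2 in starved cells, within the subunits' range of 183 to 482, against 70.6 ± 8.48 in glucose, below the lowest subunit, RPN1, at 152 ± 41.8. The highest subunit in glucose was PUP3 at 550 ± 240.

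Core subunits had slightly more counts per length than regulatory subunits in nearly every library. The counts left out the initiation region while the length was the whole coding sequence, which was not corrected. Coding sequences ran from 597 to 867 bases in the core and from 471 to 2982 in the regulatory particle, and an effect of length was not tested. The core median less the regulatory median was 0.55 and 0.21 in starved and 0.55 and 0.54 in glucose EY0690 footprint libraries, and 0.04 and -0.01 in starved and 0.22 and 0.18 in glucose BY4741 footprint libraries, on the log2 scale. In polyA RNA it was 0.30 and 0.11 in starved and 0.18 and 0.26 in glucose EY0690 libraries, and 0.15 and 0.25 in starved and 0.22 and 0.41 in glucose BY4741 libraries. Unselected RNA gave 0.18 in starved and 0.21 in glucose EY0690, and 0.12 in starved and 0.25 in glucose BY4741. The starved mean less the glucose mean was -0.18 in footprints and -0.07 in polyA RNA, with overlap between conditions in both. Within pairs of the same strain and number it was lower in starved cells in 4 of 4 footprint pairs and in 3 of 4 polyA pairs. The footprint differences were -0.0023 and -0.33 in EY0690 and -0.18 and -0.20 in BY4741. With means in place of medians all 4 footprint pairs stayed lower, and the polyA pairs split by strain. The polyA value then rose in EY0690, from 0.22 to 0.29 and from 0.16 to 0.24. It fell in BY4741, from 0.24 to 0.071 and from 0.26 to 0.17. With 4 pairs an exact permutation test could give no two-sided p below 0.125.

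The strains were compared over both conditions together, in each assay on its own. Every EY0690 library was shallower than every BY4741 library of its assay. Downstream counts were 698310 to 1660505 in EY0690 footprint libraries and 1999970 to 8110916 in those of BY4741. For polyA libraries they were 1146371 to 1974938 and 5252923 to 7003745. Strain therefore cannot be told apart from depth in these comparisons. In polyA RNA PUP3, PRE8, RPN1 and RPN10 were higher in EY0690 than in BY4741 and RPN3 and RPN9 were lower, among 20.2% of genes called higher and 17% called lower. The PUP3 difference was 0.82 ± 0.18 (adjusted p = 0.00329), and all EY0690 libraries were above all BY4741 libraries in the values given above. How many of all genes separate the strains in this way was not counted, in either assay. RPN1 was also separated, at 0.60 ± 0.15 (adjusted p = 0.00716), and PRE8 was separated within each condition, at 0.77 ± 0.17 (adjusted p = 0.00396). RPN10 was nearer the threshold at 0.45 ± 0.16 (adjusted p = 0.0379). RPN3, a lid subunit, had 409 and 409 CPM in starved and 259.5 and 386 CPM in glucose-grown EY0690, against 663 and 605 CPM in starved and 613 and 527 CPM in glucose-grown BY4741. Every EY0690 value was below every BY4741 value, with a difference of -0.73 ± 0.16 (adjusted p = 0.00423). RPN9, another lid subunit, had 309 and 257 CPM in starved and 212 and 279 CPM in glucose-grown EY0690, against 333 and 411 CPM in starved and 373 and 393 CPM in glucose-grown BY4741, again without overlap, and a difference of -0.52 ± 0.16 (adjusted p = 0.0222). RPN10 lost the call in 6 of the 8 fits that left out 1 library and RPN9 in 4, while PUP3, PRE8, RPN1 and RPN3 stayed called in each of these fits. Same-numbered libraries of a strain deviated together, which this fit ignores. With the starved and glucose counts of each strain and number summed, so that 2 sums faced 2, PUP3, PRE8, RPN3 and RPN9 stayed called and RPN1 and RPN10 did not (adjusted p = 0.0573 and 0.125).

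In footprints the lid and the base ATPases had values below 0 for EY0690 over BY4741, with few single calls. All 8 lid subunits and all 6 base ATPases had a strain difference below 0. Above 0 were 46.8% of all genes and 5 of 14 core subunits. Of the other 4 base subunits RPN10 at 0.41 and RPN2 at 0.26 were above 0, and the median of the 4 was 0.06. The median over the 18 regulatory subunits was -0.43, against -0.11 in the core particle and -0.06 over all genes. RPN5 and RPN8 passed, at -1.04 ± 0.27 (adjusted p = 0.0199) and -1.0 ± 0.25 (adjusted p = 0.0159), among 10.7% of genes called lower and 11.2% called higher. For both, the 4 EY0690 footprint values given above lay below the 4 BY4741 values, a separation not counted over all genes. Their polyA RNA differed by -0.13 ± 0.17 and -0.33 ± 0.15 and did not pass. Without the BY4741 footprint libraries numbered 2, where these genes were highest, RPN5 and RPT1 were called and RPN8 was not, and leaving out 1 library at a time called between 0 and 6 members. With the counts of both conditions summed RPN8 stayed called and RPN5 did not (adjusted p = 0.0692), and with the number shared by both strains as a block RPN9 and RPT1 were called in addition. Whether the strain difference itself differed between the assays was not tested. The core subunits ranged from -0.53 for PRE9 to 0.23 for PRE8, none past the threshold.

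Whether the response itself differed between the strains was tested as an interaction and passed for no member in either assay. Among all genes 0.17% passed in polyA RNA and 0% in footprints. In polyA RNA an unadjusted p under 0.05 was reached by RPN4 at 0.78 ± 0.36 and PRE4 at 0.70 ± 0.32 (adjusted p = 0.882 each), both larger in EY0690, and in footprints by none. DESeq2 called no member in either. With 2 libraries per group the intervals are wide: for RPN4 the approximate 95% interval in polyA RNA ran from 0.08 to 1.47.

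Genes around the proteasome were counted in lists chosen with earlier results of these data known, and each count stands beside the 20.4% of all genes called higher and 19.2% called lower in polyA RNA. In polyA RNA, 7 of 15 genes of ubiquitin activation and conjugation were called higher and none lower, led by HUL4, a ubiquitin ligase (1.76 ± 0.19, adjusted p = 1.57e-05), UBC8, a conjugating enzyme for gluconeogenic enzymes (1.40 ± 0.18, adjusted p = 7.15e-05), and UBC5 (0.88 ± 0.25, adjusted p = 0.0154), whose near-identical paralog UBC4 makes its counts uncertain. Of 12 genes of Cdc48, the ATPase that extracts ubiquitinated proteins, and of shuttle factors, 5 were higher, led by the shuttles DDI1 (1.10 ± 0.17, adjusted p = 0.000321) and DSK2 (0.81 ± 0.18, adjusted p = 0.00437) and by CDC48 itself (0.69 ± 0.21, adjusted p = 0.0198). Of 16 deubiquitinases 7 were higher and 3 lower, with UBP9 (2.09 ± 0.23, adjusted p = 2.15e-05), UBP11 (1.54 ± 0.17, adjusted p = 2.43e-05) and DOA4 (1.15 ± 0.20, adjusted p = 0.000735) the largest. Of 4 ubiquitin genes, UBI4, which encodes a chain of ubiquitin repeats, was higher (1.54 ± 0.19, adjusted p = 5.2e-05) and RPL40B, which fuses ubiquitin to a ribosomal protein and has the paralog RPL40A, was lower (-0.54 ± 0.15, adjusted p = 0.0138).

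Of 17 assembly and associated factors 4 were higher and 2 lower in polyA RNA, close to or below the shares of all genes, 20.4% and 19.2%. The base assembly chaperone NAS2 was higher (0.95 ± 0.20, adjusted p = 0.00277), and CIC1, a nucleolar protein that also takes part in ribosome assembly, and POC4, a chaperone of the alpha ring, were lower (-0.96 ± 0.20, adjusted p = 0.00266 and -0.73 ± 0.19, adjusted p = 0.0099). Of 7 regulators of RPN4, 2 were higher, also near that share: UBR2, a ubiquitin ligase that marks Rpn4 for degradation (0.52 ± 0.18, adjusted p = 0.0415), and HSF1, the heat shock factor, which activates RPN4 (0.46 ± 0.17, adjusted p = 0.0479). In footprints, NAS2 (1.57 ± 0.34, adjusted p = 0.0275), UBC8 (1.31 ± 0.27, adjusted p = 0.0183) and DDI1 (1.19 ± 0.29, adjusted p = 0.0454) were higher and no listed gene was lower, with 14 of the 15 conjugation genes tested, against 2.93% of all genes called higher and 0.259% lower. No listed gene passed in the occupancy change.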

How the data were processed

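Per the submitters' processing notes the reads were aligned with Bowtie 0.12.8 to build R64. The authors deposited 1 table of raw counts per gene, split in the file headers into an initiation region and the coding sequence downstream of it; the counting program is not given in the sources used here. Downstream counts of 16 libraries, 2 per strain, condition and kind (footprints, polyA RNA), were used. Unselected RNA had 1 BY4741 column per condition and 1 pooled EY0690 column, whose 2 initiation columns were left out. Blank cells were read as 0; no member had one.

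Genes needed 10 counts in 4 libraries of each kind fitted. Counts were scaled by TMM and tested with edgeR 4.0.16 (R 4.3.3) quasi-likelihood fits with a strain term, Benjamini-Hochberg adjusted over all genes tested at 0.05. The fits were tested on simulated data. SEs were taken from the F statistic. Same-numbered libraries of a strain deviated together (correlations of 0.16 to 0.681 in 8 comparisons, highest between BY4741 footprint libraries). The labels give a number and do not state a pairing. The main fits ignored the numbers, and the replicate block used them. Alternatives were DESeq2 1.42.0, library size alone, RLE scaling, no filter, summed regions, a replicate block, conditions summed, added total RNA, and leaving out libraries. Levels per length used RefSeq R64 coding lengths; promoters ran from 250 bases before to 50 after the start codon of 6001 genes.

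The members and lists were chosen with earlier results of these data known. All members are named; those past the threshold in any comparison are given by library, and in each further list at most 3 of the largest called changes.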

Additional observations from a re-analysis of the deposited data

How the results depend on the processing

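RPN4 stayed called in polyA RNA, and low in footprints over polyA RNA in starved cells, under every alternative run; most other calls were near the threshold, and the cause of their shifts was not tested. In polyA RNA, library size alone left 1 member called and a subunit median of 0.12, and adding BY4741 total RNA gave 11 and 0.28. Leaving out 1 library gave 1 to 7 and 0.17 to 0.27. Over all genes the 15 alternatives, the replicate block among them, called 879 to 1243 higher in polyA RNA, against 1083 in the main fit. The lowest, 879, came with library size alone. In footprints DESeq2 and summed regions each called 2 members, RLE scaling 0, the fit without the BY4741 libraries numbered 2 called 4, and leaving out 1 library 0 to 4. Over all genes DESeq2 called 240 higher in footprints and RLE scaling 143, against 147 in the main fit. The 15 alternatives, the replicate block among them, called 79 to 380. With the replicate block 9 members were called in polyA RNA and 4 in footprints; for footprints over polyA RNA it added PRE8, RPN9 and RPT6 in glucose and RPT4, RPN3 and RPN9 in starved cells, and it changed no other call on members. A block of strain and number holds only 1 strain, so for EY0690 over BY4741 2 alternatives were chosen after seeing the data. With the number shared by both strains as a replicate block, 4 members were lower in footprints and 6 higher in polyA RNA, although across strains same-numbered libraries deviated together by only 0.0567 to 0.129; with both conditions of a number summed, 1 was lower in footprints and 2 higher in polyA RNA.

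For the occupancy change DESeq2 called 1 member lower and the fit without the BY4741 footprint libraries numbered 2 called 1 higher. Leaving out 1 library gave 0 to 1 in each direction and a median of -0.27 to -0.022. Over all genes DESeq2 called 58 higher and 142 lower, against 14 and 53 in the main fit. The alternatives called 1 to 92 higher and 17 to 161 lower. For EY0690 over BY4741, DESeq2 called 5 members lower in footprints, and leaving out 1 library called 0 to 6 lower in footprints, and 3 to 6 higher and 1 to 2 lower in polyA RNA. Over all genes the alternatives called 214 to 854 lower in footprints, against 536 in the main fit. In polyA RNA they called 857 to 1150 higher and 665 to 1177 lower, against 1071 and 900.

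For footprints over polyA RNA in starved cells library size alone called 0 members higher and 28 lower and turned PUP1 to -0.029. The fit without the libraries numbered 2 called 5 higher, and leaving out 1 library called 2 to 4 higher and 5 to 12 lower. Over all genes library size alone called 412 higher and 2371 lower in starved cells, against 1179 and 1139 in the main fit. The alternatives called 412 to 1366 higher and 839 to 2371 lower. In glucose library size alone called 0 members higher and 20 lower, and DESeq2 6 higher. The fit without the libraries numbered 2 called 5 higher and 10 lower, and leaving out 1 library 1 to 5 higher and 3 to 6 lower. Over all genes library size alone called 439 higher and 2115 lower in glucose and DESeq2 1273 higher, against 1085 and 1174 in the main fit. The alternatives called 439 to 1273 higher and 600 to 2115 lower. Library size alone gave subunit medians of 0.11 in the pooled EY0690 column and 0.25 in BY4741 total RNA.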
